A study of Homo sapiens with 15 samples.

Results

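The sestrins SESN1, SESN2 and SESN3, DDIT4 (the gene of REDD1) and EIF4EBP1 (the gene of 4E-BP1) encode proteins that hold back the growth kinase complex mTORC1 or its output. These 5 genes were taken by symbol from the 26485 genes in the deposited count tables, and their levels are described in all 15 libraries. The libraries come from PSN-1, an established human cell line of pancreatic ductal adenocarcinoma (PDAC). In the siRNA experiment the cells were transfected for 72 hours with siMondoA, which targets the glucose-sensing transcription factor MondoA (gene symbol MLXIP), with siMLX, which targets its DNA-binding partner MLX, or with siControl. In the drug experiment they received SBI477, named in the labels as an inhibitor of MondoA, or the vehicle DMSO for 72 hours. Each of the 5 groups has 3 libraries, and all share the same line and serum-containing RPMI medium. No source used here gives the siRNA sequences or the dose of SBI477. Nor does any say that replicates came from separate cultures, so the p-values measure how much these libraries vary, which may be technical variation.

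mTORC1 is a kinase complex on the lysosome that drives protein synthesis and growth when amino acids, energy and growth factors are sufficient. Sestrins act on the amino acid arm: SESN2 binds GATOR2 when leucine is scarce, and the Rag GTPases then fail to recruit mTORC1. REDD1 acts on the other arm, through the TSC complex, which switches off the activator RHEB. 4E-BP1 lies downstream: it is phosphorylated by mTORC1, and its unphosphorylated form binds the cap-binding factor eIF4E and stops cap-dependent translation. SESN2, DDIT4 and EIF4EBP1 are known targets of the stress transcription factor ATF4, SESN1 is known as a p53 target and SESN3 as a FOXO target. Only transcripts were measured here, not protein, phosphorylation or mTORC1 activity.

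Library totals ran between 11227343 and 14731691 counts in the siRNA experiment and between 23315440 and 30480362 counts in the drug experiment. The targeted genes followed the labels: MLXIP stood at 22.6, 23.4 and 15.7 CPM (counts scaled to a common library size, with TMM factors) in siMondoA replicates 1, 2 and 3, against 83.6, 65.8 and 88.6 CPM in siControl. MLX stood at 11.9, 7.15 and 7.69 CPM in siMLX, against 53.4, 58.8 and 53.0 CPM in siControl. All of the 7 ductal epithelium markers checked were present, CD3E had 0 counts in 15 of 15 libraries, and PTPRC, the pan-leukocyte marker, had at most 2 counts in any library. Summed over 6 leukocyte markers, of which 3 exceeded the limit of detection in siMondoA and in siControl, levels were 56.3 to 73.3 CPM in siMondoA, 44.5 to 73.4 CPM in siMLX and 33.2 to 44.2 CPM in siControl. The 5 endothelial markers summed to 27.4 to 38.0 CPM in siMondoA, 26.9 to 37.6 CPM in siMLX and 21.1 to 24.9 CPM in siControl. CLDN5 had at most 1 count in any library, while CD68 (18.1 to 56.1 CPM), LYZ (5.65 to 44.4 CPM), KDR (6.74 to 29.02 CPM) and PECAM1 (8.51 to 20.7 CPM) were detected in all 15. Of 6 fibroblast markers, 5 exceeded the limit of detection in every group, and they summed to 539 to 824 CPM in siMondoA, 563 to 719.6 CPM in siMLX and 514 to 664 CPM in siControl. In the drug experiment they summed to 153 to 240.3 CPM in SBI477 and 99.9 to 308 CPM in DMSO. COL3A1 reached 661 CPM, and THY1 was at 0 in 12 of 15 libraries. The part of these markers in the results was not tested. siMLX replicate 2 stood apart from the other siMLX libraries although MLX was low in it, so siMLX values are given with and without it. TXNIP, a direct target by which MondoA activity is commonly read, stood at 172, 511 and 93.2 CPM in siMLX replicates 1, 2 and 3. It was at 158, 230 and 57.5 CPM in siMondoA and at 782, 785 and 518 CPM in siControl. In siMLX replicate 2 it was thus close to the lowest siControl library. The part of this in the siMLX results was not tested. In the drug table the authors' deposited fold changes could be recomputed from the counts only with the columns of replicate 2 exchanged between SBI477 and DMSO (median absolute difference 9.34e-08 over 13106 genes, against 0.196 with the labels as given and 0.28 and 0.335 with replicate 1 or replicate 3 exchanged). Drug libraries are named here by their labels, and each drug result is also given for replicates 1 and 3.

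SESN2, DDIT4 and EIF4EBP1 were higher after MondoA knockdown, SESN1 was not called, and SESN3 was too low to test. By edgeR's quasi-likelihood test with Benjamini-Hochberg adjustment and a threshold of 0.05, 3 of the 4 members tested were called higher and 0 lower in siMondoA against siControl. In the same fit 27.2% of 13001 genes were called in either direction, and 14.2% were called higher. SESN3 did not pass the filter on low counts in either table. In bulk RNA, fewer cells with a transcript and less of it per cell cannot be told apart.

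SESN2, on chromosome 1 (chr1:28259527-28282491, plus strand, GRCh38), encodes the leucine-binding sestrin. Its level was 78.7, 125 and 97.8 CPM in siMondoA replicates 1, 2 and 3, against 9.23, 10.5 and 8.02 CPM in siControl. The lowest siMondoA library was far above the highest siControl library, and the groups did not overlap. The means were 100.4 ± 23.1 CPM in siMondoA and 9.26 ± 1.26 CPM in siControl (SD, n = 3 each), resting on 3799 counts (95% Poisson interval 3679 to 3922, counting error only) and on 363 counts (327 to 402). The fitted difference was 3.44 ± 0.77 on the log2 scale (± SE), a 10.8-fold rise, with an adjusted p of 0.0106 by edgeR. It was called in each of the 7 fits that left out a library, with adjusted p between 7.63e-06 and 0.0449 by edgeR.

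SESN2 differed widely among the siMLX libraries. It was at 5.30, 51.5 and 4.42 CPM in siMLX replicates 1, 2 and 3, so replicate 2 was 10.6-fold above the mean of the other siMLX libraries. Replicates 1 and 3 both lay below every siControl library, and replicate 2 lay above them all. With all 3 siMLX libraries the difference from siControl was 1.15 ± 0.74 and was not called (adjusted p = 0.364, edgeR). Without replicate 2 it was -0.93 ± 0.24 and was called lower (adjusted p = 0.0428, edgeR), where 6.27% of 13182 genes were called and 3.68% called lower. With the replicate number as a block as well, a combination added after the values were seen, it was -0.78 ± 0.20 (adjusted p = 0.0435, edgeR), where 7.53% of genes were called. Whether MLX knockdown lowers SESN2 therefore rests on leaving out 1 library, and the remaining siMLX arm holds 2 libraries.

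SESN1 (chr6:108986437-109094819, minus strand, GRCh38), the paralog best known as a p53 target, stood at 8.35, 8.74 and 10.6 CPM in siMondoA, against 12.1, 12.2 and 11.5 CPM in siControl. Every siMondoA library was below every siControl library, and the difference of -0.37 ± 0.21 was not called (adjusted p = 0.212, edgeR; 95% interval -0.84 to 0.10). In siMLX it was at 18.9, 10.3 and 13.9 CPM, with replicate 2 below the siControl libraries and replicates 1 and 3 above them. The siMLX difference from siControl was 0.27 ± 0.21 (adjusted p = 0.456, edgeR) and 0.46 ± 0.18 without replicate 2 (adjusted p = 0.156, edgeR). In siMLX replicate 2, SESN1 was low where SESN2 was high, as in the siMondoA libraries.

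SESN3 (chr11:95165513-95232541, minus strand, GRCh38), known as a FOXO target, was close to the limit of detection in PSN-1. Its counts were 5, 2 and 4 in siMondoA, 3, 6 and 4 in siMLX, and 4, 8 and 6 in siControl. The sums were 11 in siMondoA (95% Poisson interval 5.49 to 19.7), 13 in siMLX (6.92 to 22.2) and 18 in siControl (10.7 to 28.4). These intervals overlap, and no difference was detectable at this depth. In the drug experiment SESN3 had 7, 4 and 2 counts in SBI477 and 2, 3 and 6 counts in DMSO.

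DDIT4 (chr10:72273920-72276036, plus strand, GRCh38) encodes REDD1, an inhibitor of mTORC1 that is induced by hypoxia, glucocorticoids and several stresses. Its level was 798, 1007 and 1079 CPM in siMondoA, against 280.3, 332 and 239 CPM in siControl. The groups did not overlap, and the lowest siMondoA library was well above the highest siControl library. The means were 962 ± 146 CPM in siMondoA and 284 ± 46.6 CPM in siControl (SD, n = 3 each). The rise was 1.76 ± 0.34 on the log2 scale, or 3.39-fold (adjusted p = 0.00575, edgeR), and it was called in 7 of 7 fits with a library left out.

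In siMLX, DDIT4 was at 400.0, 977 and 345 CPM. Replicate 2 reached the siMondoA range, and replicates 1 and 3 were slightly above the highest siControl library. The difference from siControl was 1.02 ± 0.33 with all 3 libraries (adjusted p = 0.0865, edgeR) and 0.39 ± 0.17 without replicate 2 (adjusted p = 0.185, edgeR). Same-numbered siMLX and siControl libraries deviated together, and with the replicate number as a block DDIT4 was called higher, at 0.91 ± 0.25 (adjusted p = 0.0433, edgeR), where 14% of genes were called. The block also covered the siMondoA libraries of the same fit, whose r with same-numbered siControl libraries was 0.14, 0.09 and 0.01. Without siMLX replicate 2 the blocked siMLX difference was 0.48 ± 0.17 and was not called (adjusted p = 0.115, edgeR).

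EIF4EBP1 (chr8:38030341-38060365, plus strand, GRCh38) encodes 4E-BP1, the translation repressor that mTORC1 inactivates. Its level was 69.0, 146 and 96.2 CPM in siMondoA, against 43.2, 40.9 and 47.2 CPM in siControl. All siMondoA libraries were above all siControl libraries, and replicate 2 was the highest of them, as for SESN2. The rise was 1.24 ± 0.30 on the log2 scale, or 2.37-fold (adjusted p = 0.0133, edgeR). It was called in 6 of the 7 fits with a library left out, and without siControl replicate 2 it was 1.20 and was not called (adjusted p = 0.0566, edgeR). In that fit 13.2% of genes were called.

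In siMLX, EIF4EBP1 was at 52.0, 101 and 54.4 CPM, with replicate 2 again in the siMondoA range and the other libraries just above siControl. The difference from siControl was 0.66 ± 0.29 with all 3 libraries (adjusted p = 0.183, edgeR) and 0.28 ± 0.24 without replicate 2 (adjusted p = 0.529, edgeR). For siMLX against siControl as a whole, 0 of the 4 members tested were called by edgeR, where 8.41% of genes were called. At an unadjusted p under 0.05 there were 2, DDIT4 and EIF4EBP1, among 3374 of 13001 genes, and DESeq2 without a replicate term called DDIT4 alone (log2 difference 1.01, adjusted p = 0.0190), where it called 12.3% of the genes it gave an adjusted p. The authors' deposited table lists DDIT4 at 0.86 (adjusted p = 0.000164), EIF4EBP1 at 0.59 (adjusted p = 0.0454) and SESN2 at 0.13 (adjusted p = 0.956) for siMLX.

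**Figure D1:**
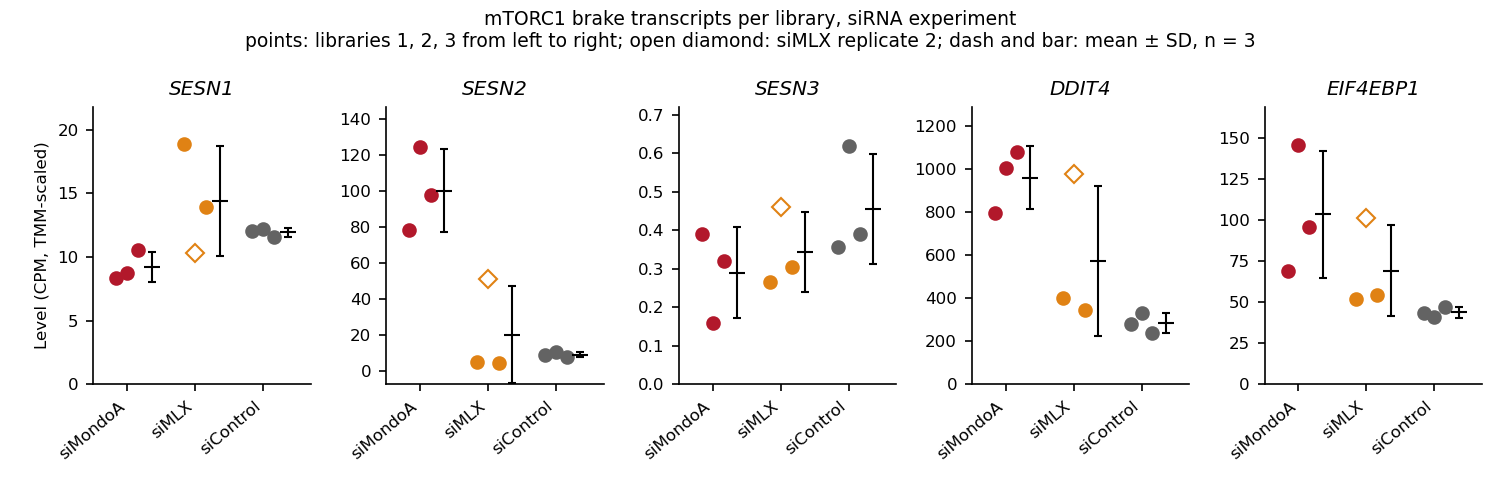
Level of each of the 5 genes (CPM, TMM-scaled, linear axes that differ between panels) in the siMondoA, siMLX and siControl libraries; points are libraries, the open diamond is siMLX replicate 2, and dash and bar are mean ± SD (n = 3). SESN2 lies between 78.7 and 125 CPM in siMondoA and between 8.02 and 10.5 CPM in siControl, and siMLX replicate 2 lies nearer to siMondoA than the other siMLX libraries do for SESN2, DDIT4 and EIF4EBP1.

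The knockdowns were also set against each other directly; siMondoA and siMLX share their siControl libraries in the comparisons above, whose values stand side by side and are not combined. With all libraries, 0 of the 4 members tested were called between siMondoA and siMLX by edgeR, where 12.9% of genes were called. At an unadjusted p under 0.05 there were 3 (SESN1, SESN2 and DDIT4), among 3943 of 13001 genes, and DESeq2 called SESN1 alone (log2 difference -0.64, adjusted p = 0.0471), where it called 16.4% of the genes it gave an adjusted p. SESN2 differed by 2.29 ± 0.72 (adjusted p = 0.0611, edgeR). Without siMLX replicate 2, all 4 were called, where 22.5% of genes were called. SESN2 was then higher in siMondoA by 4.37 ± 0.24 (adjusted p = 2.06e-05, edgeR), DDIT4 by 1.37 (adjusted p = 0.000927, edgeR) and EIF4EBP1 by 0.96 (adjusted p = 0.0196, edgeR), and SESN1 was lower at -0.83 (adjusted p = 0.0104, edgeR).

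ATF4, the stress transcription factor named above, was high in the same libraries. It stood at 567, 835 and 626 CPM in siMondoA and at 320.1, 695 and 336 CPM in siMLX, against 258, 320.1 and 253 CPM in siControl. Replicate 2 was the highest library of its group in all 3 groups, and in siMLX replicate 2 ATF4 lay within the siMondoA range. Its part in the differences was not tested.

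Because the promoters of SESN2 and DDIT4 belong to genes that were high in the same libraries, their sequences are shown. Each is the RefSeq window on GRCh38.p14 that runs from 250 bases before to 50 bases after the transcript start, on the plus strand, 5′ to 3′. SESN2 is chr1:28259268-28259567 and DDIT4 is chr10:72273674-72273973. Capitals mark the CCAAT box, which reads ATTGG here because it lies on the opposite strand, and in DDIT4 also the hypoxia response core ACGTG.
SESN2: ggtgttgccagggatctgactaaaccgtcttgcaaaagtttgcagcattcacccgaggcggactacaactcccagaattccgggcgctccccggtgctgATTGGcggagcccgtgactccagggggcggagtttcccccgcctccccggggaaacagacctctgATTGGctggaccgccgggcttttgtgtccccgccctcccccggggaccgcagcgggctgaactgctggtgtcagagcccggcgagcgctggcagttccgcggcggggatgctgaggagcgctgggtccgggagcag
DDIT4: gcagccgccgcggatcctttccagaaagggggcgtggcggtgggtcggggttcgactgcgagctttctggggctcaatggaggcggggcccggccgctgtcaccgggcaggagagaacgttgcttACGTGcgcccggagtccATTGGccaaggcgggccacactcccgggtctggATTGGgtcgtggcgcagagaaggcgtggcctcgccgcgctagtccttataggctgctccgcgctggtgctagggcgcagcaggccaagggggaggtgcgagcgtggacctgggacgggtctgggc

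Both windows hold a pair of CCAAT boxes on the opposite strand, the element that the factor NF-Y is known to bind. In SESN2 they begin at -151 and -86 relative to the start, and in DDIT4 at -108 and -75. Of 35116 promoter windows of the same length, 34.6% hold at least 1 CCAAT on either strand and 10.8% hold at least 2. DDIT4 also holds ACGTG at -125, a string found in 21.4% of windows. GC content was 67% in the SESN2 window and 69.7% in the DDIT4 window, against a median of 58.7% over all windows.

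The other searched strings were read on both strands in 6 windows of 4 members. EIF4EBP1, which was high in the same libraries, had no window and was not searched. These were TGATGNAA, the core shared by ATF4 and C/EBP factors (in 3.62% of all windows), the E-box CACGTG, which contains ACGTG (7.26%), the FOXO core GTAAACA (3.42%) and the p53 decamer (6.63%). SESN1, which has several start sites, had a p53 decamer at -49 in a window of its own and a CCAAT in each of 2 windows, at -90 on the opposite strand and at -75 on the promoter strand. None of the 6 windows had a match to TGATGNAA, CACGTG or GTAAACA, which says only that these letters are not in these windows.

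Divided by exon length, the members span several orders of magnitude. In siControl DDIT4 had 138 ± 22.6 CPM per kb of exon and EIF4EBP1 40.8 ± 2.96, followed by SESN2 at 2.68 ± 0.365, SESN1 at 2.33 ± 0.0665 and SESN3 at 0.0431 ± 0.0136 (SD, n = 3 each). The libraries of SESN2 and SESN1 overlapped in this scale, and the other neighbours in the order did not. In siMondoA the order was the same, with DDIT4 at 467 ± 71.1, EIF4EBP1 at 96.6 ± 36.3, SESN2 at 29.1 ± 6.68 and SESN1 at 1.80 ± 0.230 CPM per kb, and no neighbours overlapped among these 4.

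The sestrin pool shifted in its make-up. SESN2 made up 93.2, 95.4 and 93.1% of the summed sestrin level per kb in siMondoA replicates 1, 2 and 3, against 52.8, 55.6 and 50.3% in siControl. In siMLX its share was 29.2, 87.9 and 31.7%, so SESN1 was the larger part in replicates 1 and 3 and the smaller part in replicate 2. SESN2 held 55.9, 61.9 and 63.5% in SBI477, against 62.9, 55.6 and 60.4% in DMSO, and these groups overlapped. The share of SESN3 was highest in siControl replicate 2, at 1.07%.

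**Figure D2:**
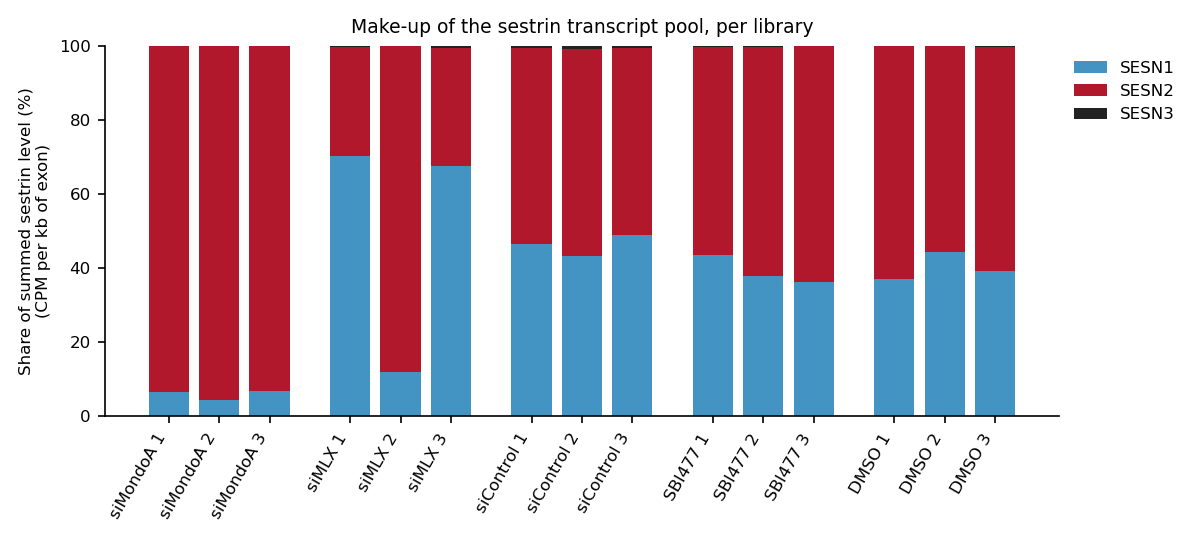
Share of SESN1, SESN2 and SESN3 in the summed sestrin level (percent, from CPM per kb of exon) in each of the 15 libraries, as bars that add up to the whole. SESN2 takes 93.1% or more in each siMondoA library and 87.9% in siMLX replicate 2, against 50.3 to 55.6% in siControl.

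The 4E-BP family did not move as one. EIF4EBP2, the paralog of EIF4EBP1, had 5.60 ± 0.472 CPM per kb in siMondoA and 6.08 ± 1.51 in siMLX, against 10.8 ± 0.453 in siControl (SD, n = 3 each). It fell by 0.94 ± 0.17 on the log2 scale after siMondoA (adjusted p = 0.00398, edgeR) and by 0.83 ± 0.17 after siMLX (adjusted p = 0.0161, edgeR). Without siMLX replicate 2 it also fell, by 0.64 ± 0.12 (adjusted p = 0.0149, edgeR). EIF4EBP3 was low throughout, at 1.41 ± 0.371 CPM per kb in siMondoA, 2.65 ± 1.43 in siMLX and 1.81 ± 0.212 in siControl.

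With the drug libraries as labelled, 0 of the 4 members tested and 0 of 14023 genes (0%) were called by edgeR between SBI477 and DMSO. Over all genes 409 had an unadjusted p under 0.05, none of them a member, and DESeq2 called 0 genes. For replicates 1 and 3 alone, 18.1% of 14232 genes were called in either direction and 9.02% were called lower, and DDIT4, called lower, was the 1 member among them.

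SESN2 varied little in the drug experiment. It had 9.16, 9.56 and 8.98 CPM in SBI477 replicates 1, 2 and 3, against 9.64, 9.21 and 8.90 CPM in DMSO. The libraries of both groups were interleaved, and the difference was -0.0022 ± 0.14 on the log2 scale, with a 95% interval of -0.33 to 0.33. For replicates 1 and 3 it was -0.03 ± 0.15 (adjusted p = 0.916, edgeR). These levels sit in the range of the siControl libraries, a remark on values that were scaled separately in each table.

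DDIT4 was the member that varied most in the drug experiment, and it did so by replicate 2. It had 101, 196 and 89.7 CPM in SBI477, against 175, 84.3 and 259.6 CPM in DMSO. The library labelled SBI477 replicate 2 lay between the libraries labelled DMSO replicates 1 and 3, and the library labelled DMSO replicate 2 was the lowest of all. As labelled, the difference was -0.43 ± 0.42 (adjusted p = 1.00, edgeR). For replicates 1 and 3, DDIT4 fell by 1.19 ± 0.16 (adjusted p = 0.00236, edgeR), and the authors' deposited table lists a log2 change of -1.19 with an adjusted p of 6.84e-14.

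In the drug experiment TXNIP, the MondoA target given above, followed the same libraries as DDIT4. It had 74.6, 121 and 41.5 CPM in SBI477, against 145, 39.2 and 204 CPM in DMSO, so the library labelled DMSO replicate 2 was the lowest here too. After siMondoA these genes moved in opposite directions. TXNIP was at -2.23 ± 0.60 on the log2 scale (adjusted p = 0.0221, edgeR) and DDIT4 at 1.76 ± 0.34 (adjusted p = 0.00575, edgeR). Over all genes with enough counts, the log2 levels of DMSO replicate 2 correlated at 0.978 and 0.972 with the other DMSO libraries and at 0.987 with SBI477 replicates 1 and 3. Those of SBI477 replicate 2 correlated at 0.986 and 0.983 with the other SBI477 libraries and at 0.993 and 0.991 with DMSO replicates 1 and 3.

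EIF4EBP1 had 101, 99.1 and 111 CPM in SBI477, against 102, 137 and 90.5 CPM in DMSO. The groups overlapped, with a difference of -0.08 ± 0.16 as labelled (adjusted p = 1.00, edgeR) and 0.14 ± 0.10 for replicates 1 and 3 (adjusted p = 0.341, edgeR). SESN1 had 10.6, 8.65 and 7.61 CPM in SBI477, against 8.41, 10.9 and 8.55 CPM in DMSO, and its groups overlapped too. Its difference was -0.05 ± 0.19 as labelled (adjusted p = 1.00, edgeR) and 0.11 ± 0.19 for replicates 1 and 3 (adjusted p = 0.707, edgeR).

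**Figure D3:**
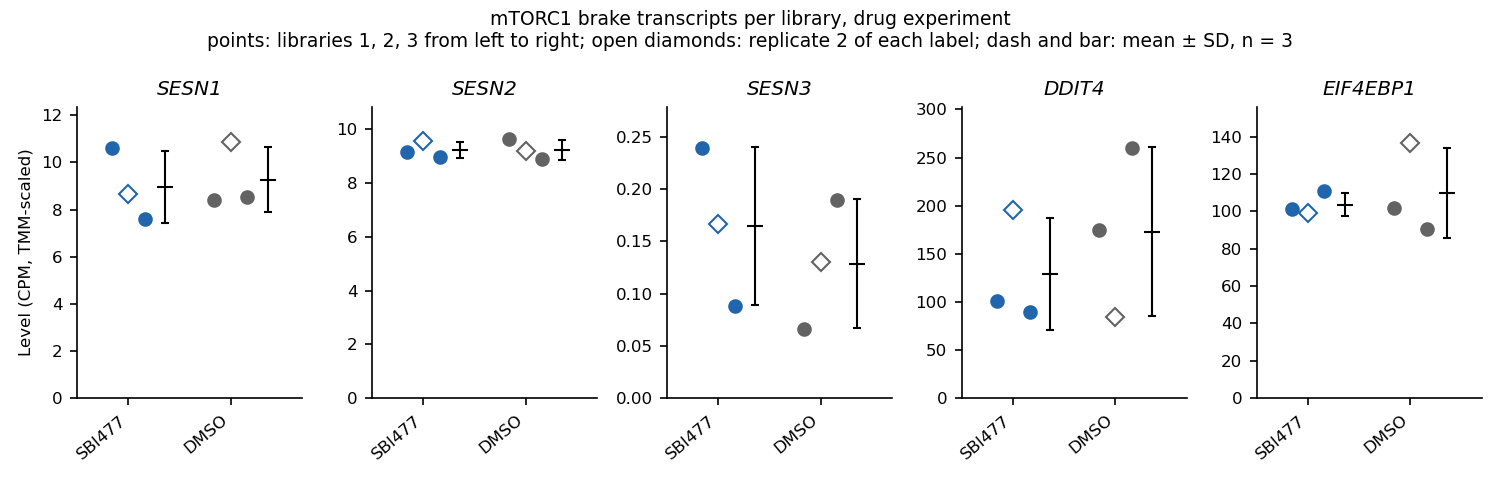
Level of each of the 5 genes (CPM, TMM-scaled, linear axes that differ between panels) in the SBI477 and DMSO libraries; points are libraries, open diamonds are replicate 2 of each label, and dash and bar are mean ± SD (n = 3). SESN2 is between 8.90 and 9.64 CPM in all 6 libraries, and DDIT4 is low in SBI477 replicates 1 and 3 and in the library labelled DMSO replicate 2.

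The drug effect was then tested against the knockdown effect in 1 fit of all 15 libraries. In this test 7.67% of 13681 genes were called in either direction and 3.83% were called lower, and 3 of the 4 members tested were called lower in the SBI477 effect than in the siMondoA effect. The difference of the effects was -3.42 ± 0.87 for SESN2 (adjusted p = 0.0284, edgeR), -2.17 ± 0.58 for DDIT4 (adjusted p = 0.0353, edgeR) and -1.31 ± 0.37 for EIF4EBP1 (adjusted p = 0.0448, edgeR). SESN1 was not called, at 0.34 ± 0.30 (adjusted p = 0.510, edgeR).

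These calls were lost in most of the 12 fits that left out a library, while the differences stayed between -3.59 and -3.24 for SESN2, -2.60 and -1.76 for DDIT4, and -1.55 and -0.98 for EIF4EBP1. SESN2 was called without siMondoA replicate 1, DMSO replicate 2 or DMSO replicate 3, DDIT4 without siMondoA replicate 1, DMSO replicate 2 or SBI477 replicate 2, and EIF4EBP1 without siMondoA replicate 1 or DMSO replicate 3. Over the 12 fits the adjusted p by edgeR ran between 0.0220 and 0.0697 for SESN2, 0.0152 and 0.0886 for DDIT4, and 0.0129 and 0.116 for EIF4EBP1. All of these fits kept siMLX replicate 2, which enters the shared estimate of spread although siMLX is not in this contrast. The difference of effects was not tested without it. For siMondoA against siControl, leaving it out changed the SE of SESN2 from 0.77 to 0.19. For drug replicates 1 and 3, where 11.5% of genes were called, the values were -3.45 for SESN2 (adjusted p = 0.0488, edgeR), -2.93 for DDIT4 (adjusted p = 0.00635, edgeR) and -1.08 for EIF4EBP1, which was not called (adjusted p = 0.100, edgeR).

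**Figure D4:**
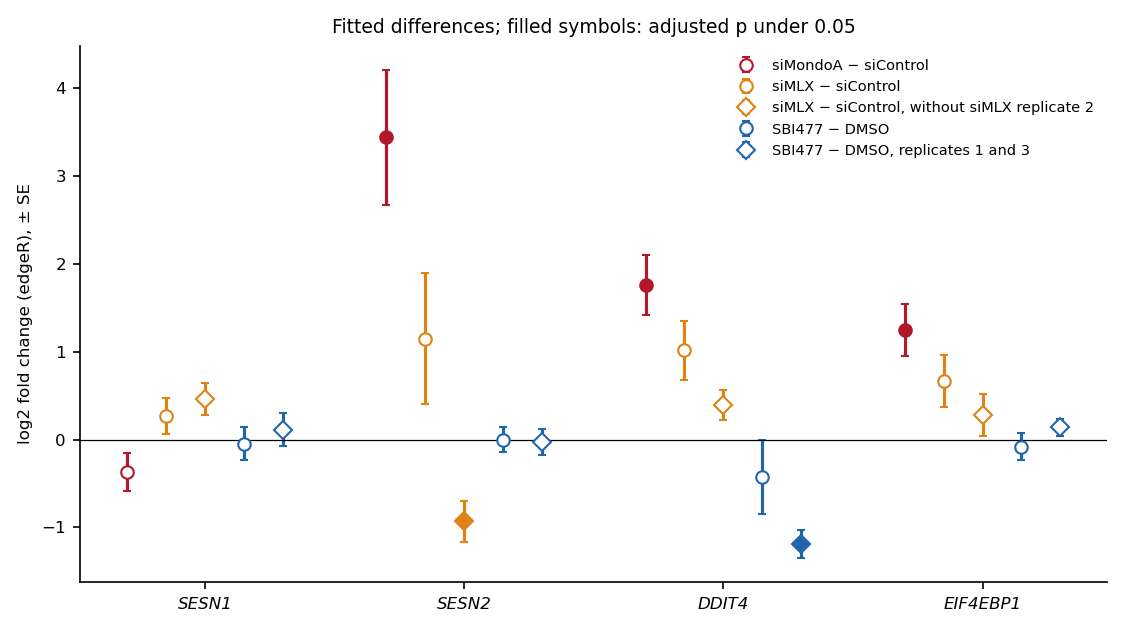
Fitted log2 difference of the 4 members tested (± SE, edgeR) for siMondoA against siControl, siMLX against siControl with and without siMLX replicate 2, and SBI477 against DMSO as labelled and for replicates 1 and 3; filled symbols have an adjusted p under 0.05. SESN2 has the highest value, 3.44 after siMondoA, and DDIT4 is the member called in the drug libraries, at -1.19 for replicates 1 and 3.

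The pathway around the members was read from gene lists, each given by its counts and its median log2 difference, beside a median of 0.0039 over all genes tested for siMondoA against siControl, of which 14.2% were called higher and 12.9% lower. The core machinery moved little. Of 8 mTORC1 and mTORC2 subunits, 0 were higher and 1 was lower, with a median of -0.18; the gene was DEPTOR, an inhibitory subunit, at -0.92 ± 0.22 (adjusted p = 0.0128, edgeR). Of 13 genes of the Rag GTPases, Ragulator and folliculin, 0 were higher and 3 lower, with a median of -0.14; LAMTOR5, a Ragulator subunit, was at -0.53 (adjusted p = 0.0233, edgeR).

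Upstream of the Rags, of 15 genes of GATOR1, GATOR2, KICSTOR and the amino acid sensors, 1 was higher and 2 were lower, with a median of -0.04. CASTOR1 (GATSL3 in the files), the arginine sensor that acts on GATOR2 beside SESN2, rose by 1.42 ± 0.33 (adjusted p = 0.0117, edgeR). SAMTOR (C7orf60 in the files), the sensor of S-adenosylmethionine, fell by 0.72 ± 0.14 (adjusted p = 0.00613, edgeR). On the REDD1 arm, of 12 genes of the TSC complex, RHEB and upstream kinases, 1 was higher and 1 lower, with a median of 0.11. RHEB was at 0.32 (adjusted p = 0.0447, edgeR) and PDPK1, a kinase that activates AKT, at -0.49 (adjusted p = 0.0110, edgeR).

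Around 4E-BP1, of 11 tested genes of cap-binding translation and the S6 kinase arm, 0 were higher and 4 lower, with a median of -0.35. Besides EIF4EBP2 these were EEF2K, the kinase that restrains elongation, at -0.85 (adjusted p = 0.0123, edgeR), PDCD4, an inhibitor of eIF4A, at -0.75 (adjusted p = 0.0186, edgeR), and EIF4B, which stimulates eIF4A, at -0.35 (adjusted p = 0.0332, edgeR). EIF4EBP2, EEF2K and PDCD4 encode restraints on translation, as EIF4EBP1 does, and EIF4EBP1 rose. In siMLX against siControl PDCD4 was at -0.52 with all libraries (adjusted p = 0.122, edgeR) and at -0.78 without siMLX replicate 2 (adjusted p = 0.0195, edgeR). In SBI477 against DMSO it was at -0.46 as labelled (adjusted p = 1.00, edgeR) and at -0.62 for replicates 1 and 3 (adjusted p = 0.00926, edgeR). EEF2K was at -0.37 in siMLX with all libraries (adjusted p = 0.266, edgeR) and at -0.15 without siMLX replicate 2 (adjusted p = 0.549, edgeR). As labelled, SBI477 against DMSO gave 0.06 for EEF2K and 0.11 for EIF4EBP2, neither called. For replicates 1 and 3 EEF2K was at 0.11 (adjusted p = 0.456, edgeR) and EIF4EBP2 at 0.23 (adjusted p = 0.0987, edgeR).

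A further list, named for stress-induced growth restraint, also held genes that were higher in siMondoA. The name is a label of the list and was not tested for each gene. Of 5 tested, 4 were higher and 0 lower, with a median of 2.94. TRIB3, which inhibits AKT, was at 3.43 (adjusted p = 0.0187, edgeR), GADD45A, a p53 and FOXO target that arrests the cycle, at 2.94 (adjusted p = 0.00183, edgeR) and PPP1R15A, the GADD34 phosphatase subunit, at 2.41 (adjusted p = 0.0144, edgeR). In siMLX against siControl with all libraries their median was 1.38, with TRIB3 at 2.62 (adjusted p = 0.0868, edgeR) and GADD45A at 1.30 (adjusted p = 0.0854, edgeR). Without siMLX replicate 2 the median was 0.13, with TRIB3 at 0.45 (adjusted p = 0.521, edgeR) and GADD45A at 0.53 (adjusted p = 0.243, edgeR).

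Lists of known regulators' targets, from which the members were left out, were read in the same way. TRIB3, NUPR1 and GADD45A each stand in 2 of the lists. Of 16 genes of the ATF4 list, which holds ATF4 itself, 14 were higher and 0 lower after siMondoA, with a median of 2.33; the amino acid transporter SLC3A2 was at 2.19 (adjusted p = 0.00398, edgeR) and CEBPB at 1.51 (adjusted p = 0.00161, edgeR). Of 16 p53 targets 9 were higher and 4 lower, with a median of 0.71, among them CDKN1A at 2.34 (adjusted p = 0.00337, edgeR) and TP53INP1 at -2.32 (adjusted p = 0.00503, edgeR). Of 12 FOXO targets 5 were higher and 2 lower, with a median of 0.14. Of 12 targets of the hypoxia-inducible factors 1 was higher and 2 were lower, with a median of -0.22: VEGFA was at 2.54 (adjusted p = 0.00411, edgeR), and LDHA at -1.02 (adjusted p = 0.0105, edgeR). Of 7 glucocorticoid receptor targets 1 was higher and 0 lower, with a median of 0.70.

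In the drug libraries of replicates 1 and 3, where DDIT4 fell, the lists of its known regulators held more genes called lower than higher. Of 12 targets of the hypoxia-inducible factors 1 was higher and 5 were lower, with a median of -0.42, and of 7 glucocorticoid receptor targets 1 was higher and 3 lower, with a median of -0.38, among them PER1 at -0.90 (adjusted p = 0.00588, edgeR) and SGK1 at -0.72 (adjusted p = 0.00857, edgeR). Of the 16 genes of the ATF4 list 0 were higher and 4 lower, with a median of -0.13, and ATF4 itself fell by 0.43 (adjusted p = 0.0105, edgeR). The median over all genes was -0.0061 in this comparison, in which 18.1% of genes were called and 9.02% were called lower.

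**Figure D5:**
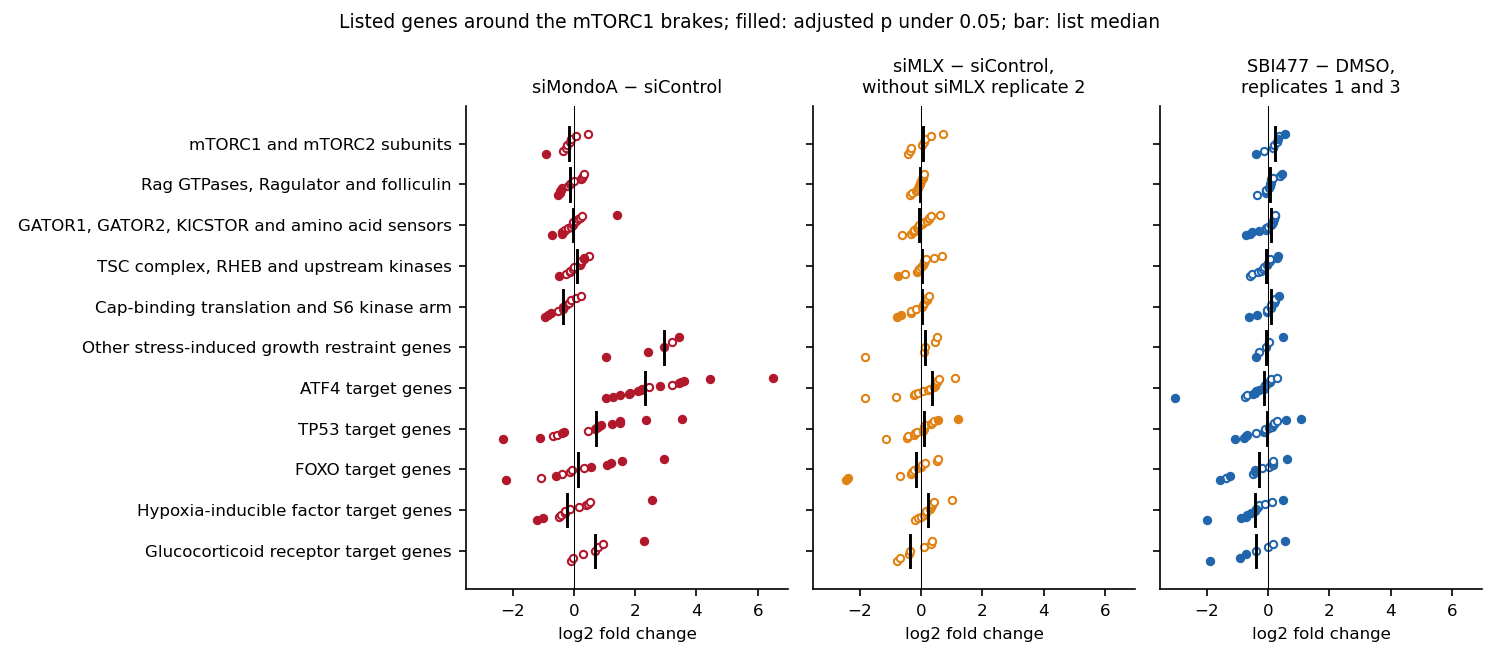
Log2 difference of every tested gene of the lists around the mTORC1 brakes, 1 row per list, for siMondoA against siControl, siMLX against siControl without siMLX replicate 2, and SBI477 against DMSO for replicates 1 and 3; filled points have an adjusted p under 0.05 (edgeR) and the bar is the list median. After siMondoA the medians of the core mTORC1 lists lie between -0.35 and 0.11, and those of the stress-induced growth restraint and ATF4 lists at 2.94 and 2.33.

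Genes with a pattern most like each member were taken as the 3 with the highest Pearson r of log2 CPM over the 9 siRNA libraries, among 10860 genes that averaged 4 CPM or more, as a description. These libraries share their 3 groups, which raises all such values. For SESN2 they were TAPT1, ZFX and NFKB2, each with r = 0.99, and over the 6 drug libraries the same genes had r = 0.50, 0.22 and -0.50. For DDIT4 they were IL6, MKRN2 and IFNGR1, each with r = 0.99, and 0.60, 0.50 and -0.34 over the drug libraries. For EIF4EBP1 they were GTPBP2, AAK1 and PHLDB2, each with r = 0.99, and -0.74, 0.36 and -0.85 over the drug libraries.

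SESN1 had less close neighbours, SHROOM1 with r = 0.92, NME2 with 0.89 and RAB11FIP3 with 0.88, and the order over the drug libraries was 0.61, -0.33 and -0.53. SESN3 was too close to the limit of detection for its nearest genes to be read. Among the members, over the 9 siRNA libraries, r was 0.91 between SESN2 and DDIT4, 0.91 between DDIT4 and EIF4EBP1, 0.85 between SESN2 and EIF4EBP1 and -0.83 between SESN1 and SESN2. Over the 6 drug libraries the same pairs had r = 0.19, -0.79, 0.02 and 0.02.

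Some reads may belong to neighbours that the counting could not set apart. DDIT4-AS1 lies on the opposite strand within DDIT4, AL390208.1 on the opposite strand within SESN1 and AP000787.1 across SESN3 in GENCODE v29, and no source used here says whether the libraries keep strand. EIF4EBP1 has a processed pseudogene, EIF4EBP1P1, on chromosome 14, whose reads of 25 bases could be counted with it.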

How the data were processed

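Per the labels' protocols, RNA of PSN-1 cells was extracted with Direct-zol kits, libraries were made with a Kapa system and paired reads of 25 bases were sequenced on an Illumina HiSeq instrument. The submitters' processing notes name HTSeq 0.6.1, TopHat2 2.1.0, edgeR and bcl2fastq 1.8.4 as tools, with hg38 and mm10 as builds. For each experiment the authors deposited a table of whole-number counts, per the file headers, together with their own log2 fold changes and p-values, which are named as deposited wherever they are printed. The deposited fold changes were recomputed with DESeq2 over genes with a mean count above 20, with a replicate term in the siRNA table and none in the drug table. No column of another study was present.

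The counts were tested with edgeR 4.0.16 under R 4.3.3 (filterByExpr, TMM, quasi-likelihood test, no term for replicates); 1 fit held the 9 siRNA libraries, another the 6 drug libraries, and the last all 15, for the difference of effects. Benjamini-Hochberg adjustment ran over all genes tested, at a threshold of 0.05. Levels are TMM-scaled CPM, log2 CPM used a prior count of 2, and levels per kb used exon lengths of GENCODE v29. Poisson intervals and the limit of detection of 3 counts per library (0.204 to 0.267 CPM in siRNA and 0.0984 to 0.129 CPM in drug libraries) cover counting error only. Alternatives were DESeq2 1.42.0 (size factors and Wald test), no filter, a replicate block, other sets of libraries and leaving out each library. The code was tested on simulated counts. Replicates differed beyond sampling noise (chi-square over degrees of freedom 8.37 or more), so no library was counted as a repeat of another.

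Same-numbered siMLX and siControl libraries deviated together (r = 0.27, 0.19 and 0.36 for replicates 1, 2 and 3), a pairing taken from the data and not from the labels. siMondoA and siControl (0.14, 0.09 and 0.01), siMondoA and siMLX (0.53, 0.45 and -0.11) and SBI477 and DMSO (-0.24, -0.56 and -0.45) did not all do so.

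The members and gene lists were chosen with earlier results of these data known. The lists hold 156 symbols, 152 found under that symbol and 4 under an older one. Genes named beside the members are MLXIP and MLX, the 3 most similar genes per member and up to 4 genes per list with the smallest adjusted p. ATF4 as a level, TXNIP, TP53INP1, EIF4EBP3 and the individually named markers of cell types were named after their values were seen.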

Additional observations from a re-analysis of the deposited data

Results flagged for a closer look

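SESN2, DDIT4 and EIF4EBP1 stand out because the effect of SBI477 on each differed from that of siMondoA, by a test of the difference itself. The SBI477 effect minus the siMondoA effect was -3.42 for SESN2, -2.17 for DDIT4 and -1.31 for EIF4EBP1 on the log2 scale (edgeR, adjusted p = 0.0284, 0.0353 and 0.0448). The SBI477 effects with the labels as given were -0.0022, -0.43 and -0.08, beside siMondoA effects of 3.44, 1.76 and 1.24, for the same genes in the same order. For drug replicates 1 and 3 the SBI477 effect on DDIT4 was -1.19, and the difference of effects was -3.45 for SESN2, -2.93 for DDIT4 and -1.08 for EIF4EBP1, the last no longer called (edgeR, adjusted p = 0.0488, 0.00635 and 0.100). Of the 12 fits with a library left out, all of which kept siMLX replicate 2, the difference was called in 3 for SESN2, 3 for DDIT4 and 2 for EIF4EBP1. The drug and siRNA experiments differ in delivery, depth and controls, and the labels of drug replicate 2 are in doubt, so a difference of experiments and a difference of treatments cannot be told apart.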

How the results depend on the processing

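The siMondoA calls of SESN2, DDIT4 and EIF4EBP1 kept their direction and their side of the threshold under DESeq2 size factors, DESeq2's Wald test, no filter, the replicate block and the 6 compared libraries alone. With 1 library left out, 1745 to 4333 genes were called for siMondoA against siControl (3532 with all libraries), 254 to 833 for siMLX against siControl (1094), 670 to 2970 for siMondoA against siMLX (1673) and 423 to 1680 for the difference of effects (1049). The fewest were called without siControl replicate 2, siControl replicate 1, siMLX replicate 3 and SBI477 replicate 1, and the most without siMLX replicate 2, siMLX replicate 1, siMLX replicate 2 and siMondoA replicate 1, in the same order. The members called in these fits numbered 2 to 3, 0 to 1, 0 to 4 and 0 to 3 in the same order.

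For siMLX against siControl, DESeq2 called 1645 genes and 1 member, the replicate block 1815 genes and 1 member, and the block without siMLX replicate 2 called 1 member. For siMondoA against siMLX, 1 member was called without a filter and 1 by DESeq2, 2 members and 2606 genes with the replicate block, and 706 genes from the 6 compared libraries alone. Same-numbered libraries of these groups did not all deviate together. For SBI477 against DMSO, replicates 1 and 3 gave 2575 genes and 1 member, against 0 and 0 as labelled. For the difference of effects DESeq2 called 1784 genes and drug replicates 1 and 3 called 1595. With the replicate block DDIT4 was not called there (-2.17, edgeR adjusted p = 0.0535), and the block changed no call of a member besides this and those counted above.

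SESN2 changed sign in siMLX against siControl without siMLX replicate 2, at -0.93, and with the block as well, at -0.78 (1.15 with all libraries, and up to 1.63 with 1 library left out). In SBI477 against DMSO, SESN2 was at 0.0038 without a filter and 0.0017 by DESeq2, and between -0.030 and 0.029 with 1 library left out. SESN1 was at 0.11 for replicates 1 and 3 and between -0.18 and 0.075 with 1 library left out, and EIF4EBP1 at 0.14 and between -0.20 and 0.10. DDIT4 was at -1.19 for replicates 1 and 3 and between -0.86 and -0.012 with 1 library left out, the smallest change being without DMSO replicate 3 (-0.43 with all libraries). The cause was not tested for any of these. Depth limits SESN3, which had at most 8 counts in any library.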
